A study of Mus musculus with 2 samples.

Results

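The genes described here are 10 components and target genes of the canonical Wnt/β-catenin pathway, Ctnnb1, Lef1, Tcf7, Tcf7l1, Tcf7l2, Axin2, Sp5, Nkd1, Dkk1 and Porcn. They were taken by symbol from the 32286 features of each library, and all 10 were found in both. They were read in embryonic stem cells (ESCs) of the mouse, grown with serum and LIF over feeder cells (0 h), and in the epiblast-like cells that formed within 48 h (48h-EpiLCs), a culture model of the step from naïve to formative pluripotency. There were 2 scRNA-seq libraries made in droplets, 1 per stage. Each held wild-type (WT) and Cnot8 knockout (KO) cells mixed in equal number, of the strain ICR by the labels. The genotype label of both libraries names wild type alone, which differs from this mixture. The WT line carries ROSA mT/mG, a reporter that transcribes tdTomato. By the methods of the study, the KO mice were made with a guide RNA against exon 2 of Cnot8, a deadenylase gene of the Ccr4-Not complex. KO ESCs were derived from blastocysts of heterozygous matings, with a single colony picked by hand. Whether the KO cells read here were of 1 line or 1 clone is not given in the sources used here. ESCs were grown on feeders, whereas 48h-EpiLCs were grown on Matrigel in N2B27 medium with activin A, bFGF and KSR. The methods describe EpiLC induction from ESCs kept in 2i/LIF, and 2i contains an inhibitor of GSK3, a kinase of this pathway. Whether the cells of the 48h-EpiLC library had been in 2i/LIF is not given in the sources used here. There was 1 library per stage and no replicate, so none of the differences described could be tested, and stage, library and culture medium cannot be told apart.

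In the absence of a Wnt ligand, β-catenin is held by a destruction complex of Axin, Apc, Gsk3 and casein kinase and is degraded. Wnt proteins, which the acyltransferase Porcn modifies before secretion, bind Frizzled and Lrp receptors and disable this complex, and β-catenin then enters the nucleus and binds the TCF/LEF factors. In mouse ESCs, Tcf7l1 acts mainly as a repressor of naïve genes, and inhibition of Gsk3 relieves this repression. Axin2, Sp5, Nkd1 and Dkk1 are transcribed in response to the pathway in many tissues and feed back on it.

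The line of a cell was read from its own transcripts. Of the cells with at least 1000 genes and at most 10% mitochondrial transcripts, WT cells had at least 1 unique molecular identifier (UMI, a count of 1 captured transcript) of tdTomato and 0 of the Y-linked Ddx3y, Eif2s3y, Kdm5d and Uty. KO cells had 0 UMIs of tdTomato and at least 2 of the Y-linked genes. This gave 435 WT and 2978 KO cells among 11054 ESCs, and 368 WT and 2977 KO cells among 9400 48h-EpiLCs. Most cells fell in neither class (7559 and 5971), and 82 and 84 carried both marks. Levels are UMIs of a gene per 1000000 UMIs of the class (CPM). The totals were 6154790 UMIs for WT ESCs, 44110356 for KO ESCs, 6219834 for WT 48h-EpiLCs and 59291903 for KO 48h-EpiLCs. Because Y-linked transcripts and the reporter define the classes, genotype, sex chromosomes and line of origin cannot be told apart. Intervals in brackets are 95% intervals and cover counting error only.

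Cnot8 itself was not lower in KO cells. It stood at 43.1 CPM in WT and 72.1 CPM in KO ESCs, and at 49.7 CPM in WT and 62.6 CPM in KO 48h-EpiLCs, so that it gives no check of the KO label. The 6 pluripotency markers were all detected and summed to between 1724 and 2108 CPM in the 4 classes. The 6 naïve markers summed to 978 CPM in WT and 1299 CPM in KO ESCs, and to 89.4 CPM in WT and 216 CPM in KO 48h-EpiLCs. The 4 formative markers summed to 310 CPM (WT) and 351 CPM (KO) in ESCs and reached 1109 CPM (WT) and 954 CPM (KO) in 48h-EpiLCs. Of the markers of other cells, the 9 feeder fibroblast genes summed to 12.5 CPM in WT ESCs, where Lum was at 0, and to 44.4 CPM in KO ESCs. They summed to 8.7 CPM in WT 48h-EpiLCs, where Col3a1, Lum and Postn were at 0, and to 11.8 CPM in KO 48h-EpiLCs. The 8 primitive endoderm genes summed to 19.7 CPM in WT ESCs, 37.3 CPM in KO ESCs, 7.1 CPM in WT 48h-EpiLCs and 8.1 CPM in KO 48h-EpiLCs, with Foxa2 and Sox7 at 0 in WT 48h-EpiLCs. The 2-cell-like genes, 7 in number, summed to between 1.3 and 8.4 CPM, with Zscan4f, Tcstv1 and Zfp352 at 0 in WT ESCs and Tcstv3, Zfp352 and Tmem92 at 0 in WT 48h-EpiLCs. The 7 mesendoderm genes summed to between 4.4 and 10.6 CPM, with T, Mixl1, Mesp1 and Evx1 at 0 in WT ESCs and Tbx6 and Evx1 at 0 in WT 48h-EpiLCs. The part of these other cells in the differences below was not tested, except where values without marker-rich barcodes are given. Barcodes with at least 5 UMIs of the feeder, primitive endoderm or 2-cell-like list (marker-rich barcodes) made up 2.53% of WT and 5.27% of KO ESCs, and 0% of WT and 0.571% of KO 48h-EpiLCs.

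To find where the 10 genes differed between lines and stages, a gene was taken as measured at a mean of at least 5 CPM in the 2 classes compared and as different at a ratio past 1.5-fold. In ESCs, Axin2 and Tcf7 were higher in KO cells, and Porcn, Lef1 and Tcf7l1 were lower, among 7 genes measured. Over all 9276 genes measured there, 13.9% were higher and 5.6% lower in KO cells. In 48h-EpiLCs, Tcf7l1 was lower in KO cells and none was higher, among 6 genes measured, against 9.04% higher and 4.94% lower over 9384 genes. From ESCs to 48h-EpiLCs, Axin2 and Tcf7 were higher and Porcn was lower in WT cells, among 7 genes measured. Over all 9241 genes measured there, 14.6% were higher and 12.4% lower, so that the lower count was near the background. Over the same step in KO cells, Lef1 was higher and Axin2 and Porcn were lower, among 7 genes measured. Over all 9478 genes, 9.51% were higher and 11.1% lower, so that the higher count was near the background. Sp5, Nkd1 and Dkk1 stayed under 5 CPM in every comparison.

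**Figure D1:**
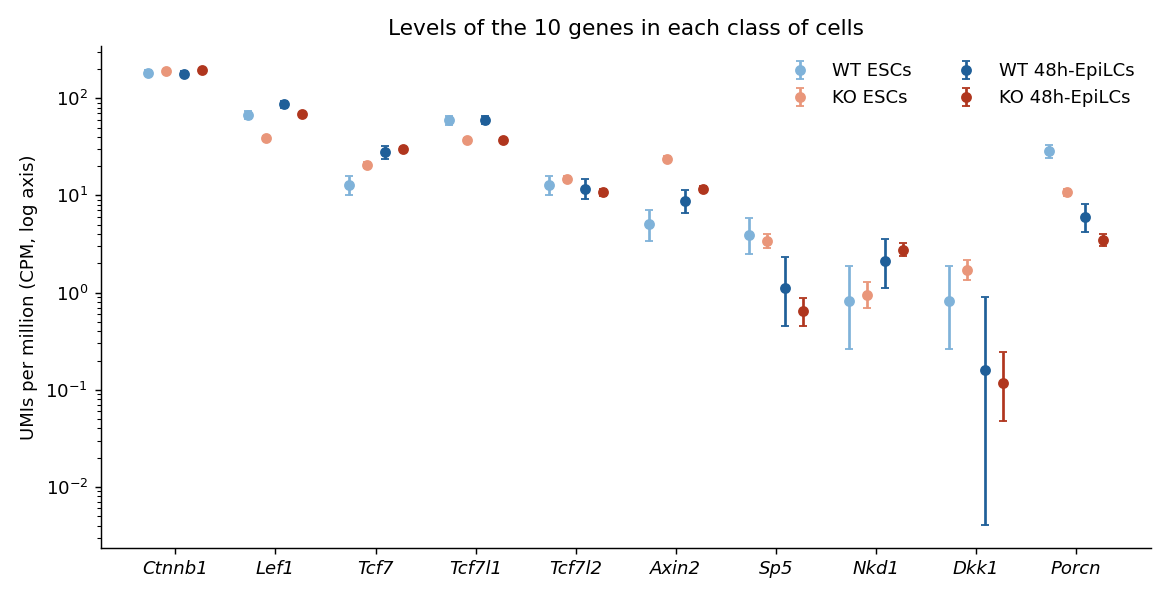
Level of each gene in CPM (log axis) in WT and KO ESCs and WT and KO 48h-EpiLCs. Points are class sums and bars their 95% counting intervals. Axin2 stood at 5.04 CPM in WT ESCs and 23.8 CPM in KO ESCs, while Ctnnb1 lay between 179 and 198 CPM in all 4 classes.

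Ctnnb1 (chr9:120929216-120960507, plus strand, GRCm38) encodes β-catenin, the transducer of the pathway. Its level was 183 CPM [172 to 194] in WT ESCs, 191 CPM [187 to 195] in KO ESCs, 179 CPM [168 to 190] in WT 48h-EpiLCs and 198 CPM [194 to 201] in KO 48h-EpiLCs. The classes lay close together and the ESC intervals overlapped. The KO level was 1.05 times the WT level in ESCs [0.983 to 1.11] and 1.11 times in 48h-EpiLCs [1.04 to 1.18]. The gene was thus far from 1.5-fold in either stage. β-catenin acts through protein stability, which these counts do not measure.

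Of the TCF/LEF factors, which carry β-catenin to DNA, 3 differed between the lines in ESCs. Lef1 (chr3:131110471-131224356, plus strand), an activating member, stood at 67.9 CPM [61.6 to 74.7] in WT ESCs, 39.1 CPM [37.3 to 41.0] in KO ESCs, 86.7 CPM [79.5 to 94.3] in WT 48h-EpiLCs and 69.1 CPM [67.0 to 71.2] in KO 48h-EpiLCs. KO cells were lowest in ESCs, and each line had more Lef1 in 48h-EpiLCs. Lef1 was 1.74-fold lower in KO than in WT ESCs [1.56 to 1.93] and 1.25-fold lower in 48h-EpiLCs [1.14 to 1.37]. Between the stages it was 1.28-fold higher in WT cells [1.12 to 1.45] and 1.77-fold higher in KO cells [1.67 to 1.87]. On the log2 scale, the stage change in KO cells exceeded that in WT cells by 0.47 [0.27 to 0.67].

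Tcf7l1 (chr6:72626378-72789254, minus strand), the repressor among the factors, was lower in KO cells at both stages and did not move with the stage. It stood at 59.1 CPM [53.2 to 65.5] in WT ESCs and 59.6 CPM [53.7 to 66.0] in WT 48h-EpiLCs. In KO cells it stood at 36.8 CPM [35.1 to 38.7] and 37.3 CPM [35.8 to 38.9]. The WT and KO intervals were apart at each stage. The KO level was 1.61-fold lower in ESCs [1.43 to 1.80] and 1.60-fold lower in 48h-EpiLCs [1.43 to 1.78]. The difference between the stage changes of the lines was 0.01 on the log2 scale [-0.22 to 0.24]. With the looser class rule (any tdTomato-positive cell as WT, and KO from 1 Y-linked UMI), the log2 ratio between the lines came to -0.53 in ESCs and -0.55 in 48h-EpiLCs, both short of 1.5-fold.

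Tcf7 (chr11:52252371-52283014, minus strand), which encodes TCF1, stood at 12.7 CPM [10.0 to 15.8] in WT ESCs and 20.5 CPM [19.2 to 21.9] in KO ESCs. It was at 27.7 CPM [23.7 to 32.1] in WT 48h-EpiLCs and 30.2 CPM [28.9 to 31.7] in KO 48h-EpiLCs. The lines were apart in ESCs and overlapped in 48h-EpiLCs. KO ESCs were 1.62-fold higher [1.28 to 2.07], and the looser class rule brought this to 0.57 on the log2 scale, just under 1.5-fold. From ESCs to 48h-EpiLCs Tcf7 was 2.18-fold higher in WT cells [1.66 to 2.89] and 1.47-fold higher in KO cells [1.36 to 1.60], a difference of -0.57 on the log2 scale [-0.97 to -0.16].

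Tcf7l2 (chr19:55741820-55933654, plus strand), which encodes TCF4, did not differ by 1.5-fold in any comparison. Its level was 12.8 CPM [10.2 to 16.0] in WT ESCs, 14.7 CPM [13.6 to 15.9] in KO ESCs, 11.7 CPM [9.20 to 14.8] in WT 48h-EpiLCs and 10.8 CPM [9.96 to 11.6] in KO 48h-EpiLCs. The intervals of WT and KO cells overlapped at both stages, and the ratio of KO to WT was 1.15 in ESCs [0.906 to 1.47] and 0.918 in 48h-EpiLCs [0.720 to 1.19].

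**Figure D2:**
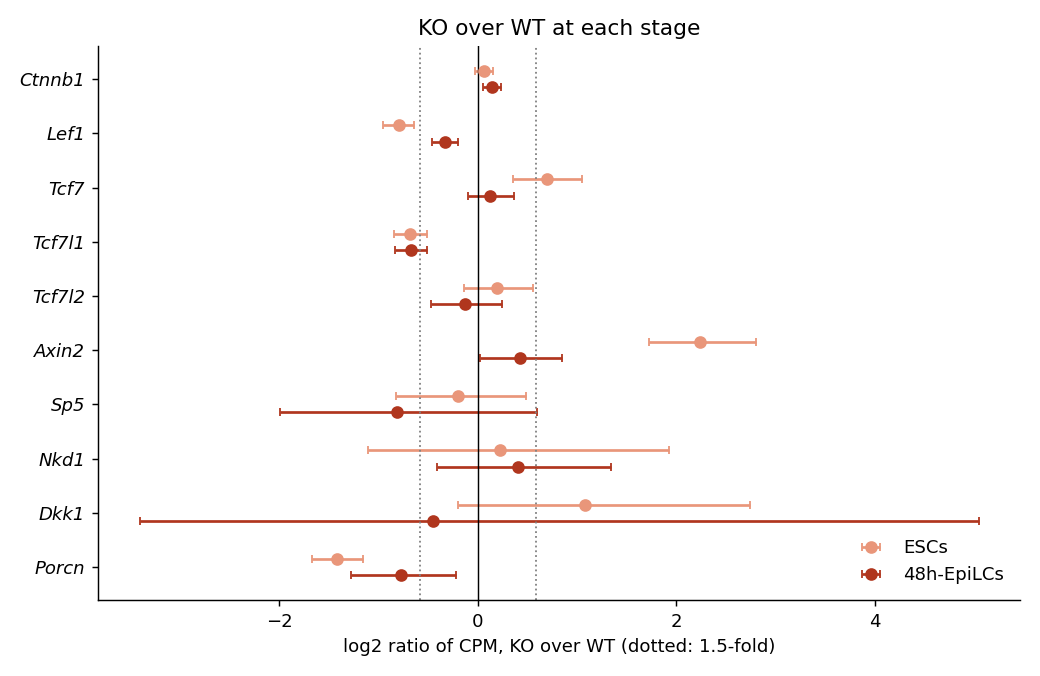
log2 ratio of KO to WT cells for each gene in ESCs and in 48h-EpiLCs. Points are ratios of CPM, bars are 95% counting intervals and dotted lines mark 1.5-fold. Axin2 lay at 2.24 in ESCs and 0.42 in 48h-EpiLCs, whereas Tcf7l1 lay at -0.68 at both stages.

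Axin2 (chr11:108920349-108950783, plus strand), a scaffold of the destruction complex and the most widely used readout of the pathway, differed most between the lines among the 7 genes measured in ESCs, and did not pass 1.5-fold between the lines in 48h-EpiLCs. In ESCs, 31 UMIs were counted in WT cells and 1049 in KO cells, or 5.04 CPM [3.42 to 7.15] and 23.8 CPM [22.4 to 25.3]. In 48h-EpiLCs, 54 UMIs in WT cells and 690 in KO cells gave 8.68 CPM [6.52 to 11.3] and 11.6 CPM [10.8 to 12.5]. KO ESCs thus stood above the other 3 classes, and WT ESCs lowest. The KO level was 4.72-fold higher in ESCs [3.31 to 6.99] and 1.34-fold higher in 48h-EpiLCs [1.02 to 1.80]. With the looser class rule the log2 ratio in ESCs was 1.61 in place of 2.24. When each cell was thinned to 5000 UMIs, the log2 ratio in 48h-EpiLCs was 0.01 instead of 0.42.

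Between the stages the ratios of the lines lay on opposite sides of 1. Axin2 was 1.72-fold higher in WT 48h-EpiLCs than in WT ESCs [1.09 to 2.77] but 2.04-fold lower in KO 48h-EpiLCs than in KO ESCs [1.85 to 2.25]. The stage change in KO cells minus that in WT cells was -1.82 on the log2 scale [-2.47 to -1.16], and -2.66 after thinning. The WT side rests on 31 and 54 UMIs. After thinning it rests on fewer, with a UMI of Axin2 in 8 of 434 WT ESCs and 18 of 367 WT 48h-EpiLCs. The value of -2.66 has no interval. With the looser class rule the WT change was 0.23 on the log2 scale, short of 1.5-fold.

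Part of the Axin2 in the ESC library lay in cells of another kind. The 205 barcodes rich in primitive endoderm markers held 68.5 CPM of Axin2 [59.1 to 78.9], against 8.28 CPM [5.50 to 12.0] in the 209 barcodes rich in feeder markers. Of the 1049 Axin2 UMIs of KO ESCs, 101 (9.63%) came from primitive endoderm marker-rich barcodes and 18 (1.72%) from feeder marker-rich ones. Without marker-rich barcodes the log2 ratio of KO to WT ESCs was 2.26, against 2.24 with them. Cells in neither class held 14.7 CPM of Axin2 in ESCs [14.0 to 15.6], between the WT and KO levels.

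In single cells, Axin2 was found in more KO than WT ESCs at equal depth. After thinning to 5000 UMIs, 8 of 434 WT ESCs (1.84%) [0.799 to 3.60] and 306 of 2955 KO ESCs (10.4%) [9.28 to 11.5] had a UMI of it. Feeder marker-rich barcodes were read beside them, although 67 of the 209 were also classed as KO ESCs. The share there was 2.04% [0.559 to 5.14]. Before thinning, barcodes also classed as KO ESCs held 18 of the 28 Axin2 UMIs of the feeder marker-rich barcodes. Their share is therefore no separate background, and whether the WT share lies above background cannot be read from it. In 48h-EpiLCs the shares were 4.90% [2.93 to 7.64] in WT cells and 4.99% [4.23 to 5.83] in KO cells. Before thinning the shares were 6.44% of WT and 24.8% of KO ESCs, at median depths of 13151 and 13368 UMIs per cell. For 48h-EpiLCs the unthinned shares were 13.3% of WT and 18.1% of KO cells, at 15598 and 17628 UMIs per cell.

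Sp5 (chr2:70474923-70477729, plus strand), a zinc-finger repressor of Wnt target genes, did not differ by 1.5-fold between the lines in ESCs when all UMIs were used. It stood at 3.90 CPM [2.5 to 5.8] in WT ESCs and 3.40 CPM [2.88 to 3.99] in KO ESCs, and at 1.13 CPM [0.452 to 2.32] in WT 48h-EpiLCs and 0.641 CPM [0.454 to 0.880] in KO 48h-EpiLCs. The lines overlapped at each stage. From ESCs to 48h-EpiLCs Sp5 was 3.46-fold lower in WT cells [1.45 to 9.52] and 5.31-fold lower in KO cells [3.70 to 7.79]. The WT values rest on 24 and 7 UMIs.

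The bases before the annotated starts of Sp5 and Axin2 are shown because these 2 target genes differed in their pattern. Each run is the 250 bases before the gene start on GRCm38.p6, from RefSeq, 5′ to 3′ on the strand of the gene, and no annotated exon lies in it. Capitals mark CTTTGA or CTTTGT, the core letters of the TCF/LEF motif, on either strand, and no match overlaps another.
Sp5, chr2:70474673-70474922: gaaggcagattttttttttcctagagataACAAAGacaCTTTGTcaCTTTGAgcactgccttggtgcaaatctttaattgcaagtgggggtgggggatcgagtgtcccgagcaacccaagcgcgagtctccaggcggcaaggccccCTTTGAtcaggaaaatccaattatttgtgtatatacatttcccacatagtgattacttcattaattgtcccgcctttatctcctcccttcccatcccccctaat
Axin2, chr11:108920099-108920348: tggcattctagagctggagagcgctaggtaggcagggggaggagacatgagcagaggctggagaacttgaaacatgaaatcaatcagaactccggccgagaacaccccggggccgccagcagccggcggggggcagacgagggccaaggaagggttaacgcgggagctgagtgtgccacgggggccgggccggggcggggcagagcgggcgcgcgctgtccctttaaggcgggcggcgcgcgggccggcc
The Sp5 window held 4 matches, which began 221, 212, 204 and 104 bases before the start, and the Axin2 window held 0. Of 32851 promoter windows of this length, 27.6% held at least 1 match and 0.776% held 3 or more. Of the 10 genes, 9 were in the promoter table with 15 windows. Matches were found for Sp5, for Dkk1 (3 matches), for Tcf7l1 (1), for 1 of 4 Lef1 windows (3) and for 1 of 2 Tcf7l2 windows (1). A match of letters is not a bound site, and no match says only that these letters were not in this window.

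Nkd1 (chr8:88521354-88594884, plus strand), which binds Dishevelled and dampens the signal, was counted in few UMIs. They were 5 in WT ESCs, 42 in KO ESCs, 13 in WT 48h-EpiLCs and 164 in KO 48h-EpiLCs, or 0.812, 0.952, 2.09 and 2.77 CPM. The 48h-EpiLC values were the higher ones in both lines. In KO cells Nkd1 was 2.90-fold higher in 48h-EpiLCs [2.06 to 4.18], and in WT cells the ratio was 2.57 with an interval of 0.861 to 9.22. The ratio of KO to WT was 1.17 in ESCs [0.464 to 3.80] and 1.32 in 48h-EpiLCs [0.753 to 2.54]. The depth of the WT classes does not resolve a difference of this size.

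Dkk1 (chr19:30545863-30549665, minus strand), a secreted antagonist that binds the Lrp co-receptors, was mostly found in primitive endoderm marker-rich barcodes of the ESC library. These held 40.3 CPM of it [33.2 to 48.5]. The level was 0.812 CPM (5 UMIs) in WT ESCs, 1.72 CPM (76 UMIs) in KO ESCs, 0.161 CPM (1 UMI) in WT 48h-EpiLCs and 0.118 CPM (7 UMIs) in KO 48h-EpiLCs. Of the 76 UMIs of KO ESCs, 52 (68.4%) came from the primitive endoderm marker-rich barcodes, as did 4 of the 5 UMIs of WT ESCs. At 5000 UMIs per cell, 18.2% of those barcodes had a Dkk1 UMI [13.1 to 24.3], against 0.778% of KO ESCs [0.494 to 1.17], 0.461% of WT ESCs [0.0559 to 1.65] and 0% of feeder marker-rich barcodes (0 of 196) [0 to 1.86]. The ratio of KO to WT in ESCs was 2.12 with an interval of 0.87 to 6.72. From ESCs to 48h-EpiLCs Dkk1 was 14.6-fold lower in KO cells [6.75 to 37.5]. Without marker-rich barcodes this log2 change was -2.45 in place of -3.87.

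**Figure D3:**
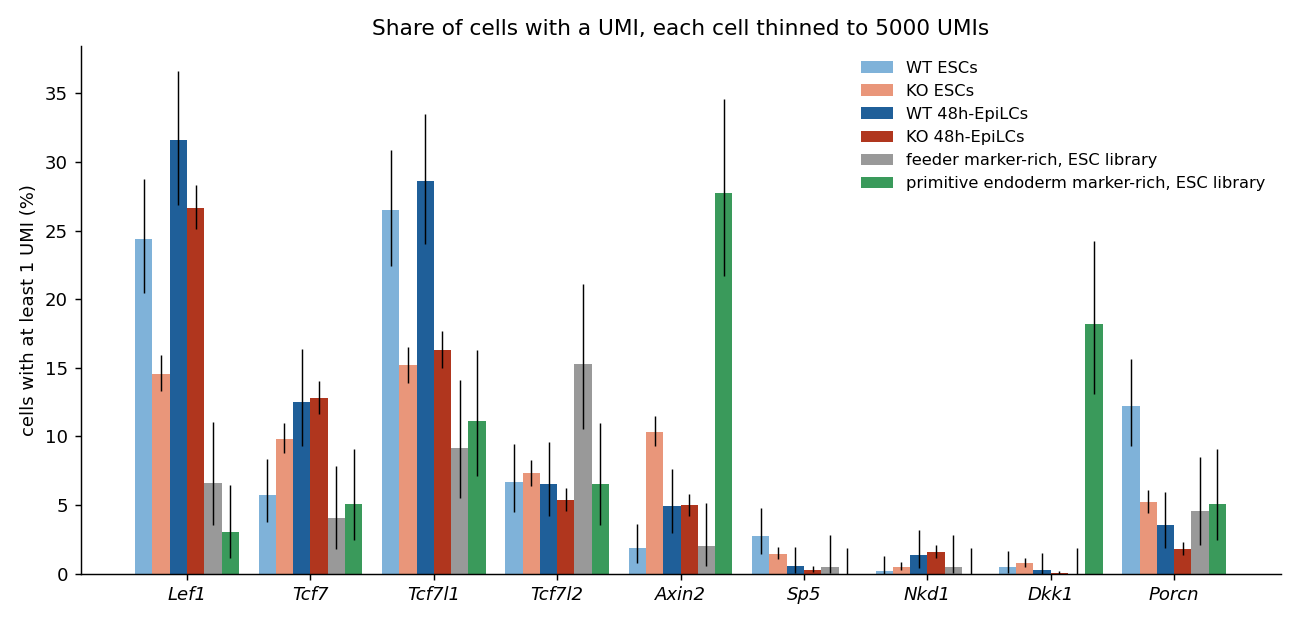
Share of cells with at least 1 UMI of each gene (%), with each cell thinned to 5000 UMIs, in the 4 classes and in feeder and primitive endoderm marker-rich barcodes of the ESC library. Bars start at 0 and lines are exact 95% binomial intervals. Axin2 reached 27.8% and Dkk1 18.2% in primitive endoderm marker-rich barcodes, and Axin2 was at 1.84% in WT and 10.4% in KO ESCs.

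Porcn (chrX:8193848-8206525, minus strand), the acyltransferase that Wnt proteins need for secretion, was lower in KO cells and lower in 48h-EpiLCs. Its level was 28.6 CPM [24.5 to 33.1] in WT ESCs, 10.7 CPM [9.78 to 11.7] in KO ESCs, 5.95 CPM [4.19 to 8.20] in WT 48h-EpiLCs and 3.49 CPM [3.03 to 4.0] in KO 48h-EpiLCs. No 2 of these intervals overlapped. KO ESCs were 2.67-fold below WT ESCs [2.23 to 3.18], and KO 48h-EpiLCs were 1.70-fold below WT 48h-EpiLCs [1.17 to 2.43], where the mean level was under 5 CPM. Between the stages Porcn was 4.81-fold lower in WT cells [3.36 to 7.05] and 3.07-fold lower in KO cells [2.60 to 3.63]. A UMI of Porcn was found in 12.2% of WT ESCs [9.28 to 15.7] and 5.21% of KO ESCs [4.44 to 6.08] at 5000 UMIs per cell, with 4.59% in feeder marker-rich barcodes [2.12 to 8.54]. Of the 209 feeder marker-rich barcodes, 67 were also classed as KO ESCs, and these held 15 of the 28 Porcn UMIs. The feeder share is therefore no separate background for the KO share.

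Porcn lies on the X chromosome, and the classes differ in Y-linked transcripts. The log2 ratio of KO to WT ESCs had a median of -0.03 over 300 X-linked genes and 0.13 over 8955 autosomal genes, and 13.7% of X-linked against 5.30% of autosomal genes were lower in KO cells by 1.5-fold. In 48h-EpiLCs the medians were -0.01 and 0.08, with 12.7% and 4.67% lower. The part of the X chromosome in the Porcn difference was not tested.

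**Figure D4:**
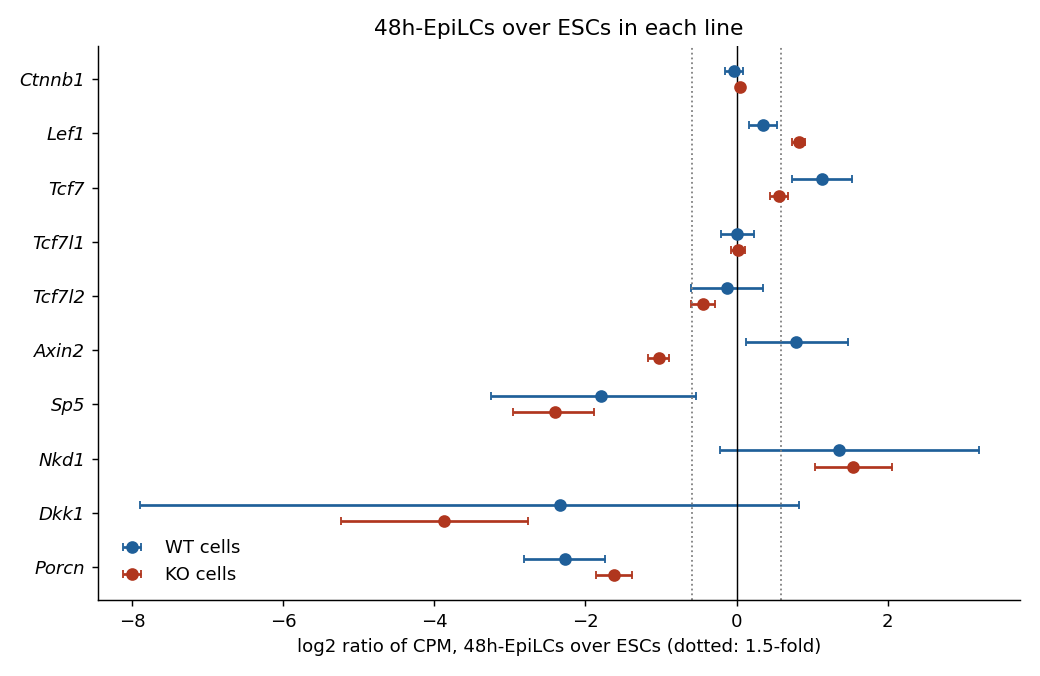
log2 ratio of 48h-EpiLCs to ESCs for each gene in WT and in KO cells. Points are ratios of CPM, bars are 95% counting intervals and dotted lines mark 1.5-fold. Axin2 lay at 0.79 in WT cells and -1.03 in KO cells, and Porcn and Sp5 lay below 0 in both.

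Cells with several transcripts of the target genes were rare. With feeder and primitive endoderm marker-rich barcodes left out and cells thinned to 5000 UMIs, 35 of 2807 KO ESCs (1.25%) [0.870 to 1.73] had at least 2 UMIs of Axin2, Sp5 and Nkd1 together. This was true of 0 of 424 WT ESCs [0 to 0.866], of 2 of 367 WT 48h-EpiLCs (0.545%) and of 16 of 2964 KO 48h-EpiLCs (0.540%). The 35 KO ESCs held 40.0 CPM of Lef1 and 206 CPM of Ctnnb1, against 36.7 and 194 CPM in the 2479 KO ESCs with 0 UMIs, with log2 ratios of 0.12 [-1.20 to 1.18] and 0.08 [-0.43 to 0.56]. These intervals include 0, and 35 cells do not resolve smaller differences. Many other genes were read there, including the 101 genes of the pathway lists described below and the marker genes. Among these other genes, some intervals lay above 0. These were Wnt4 (2.90 [0.95 to 4.37], 4 UMIs), Esrrb (0.84 [0.07 to 1.51], 18 UMIs) and Sox17 (4.82 [1.43 to 7.44], 2 UMIs). The intervals make no allowance for the number of genes read. A few above 0 can therefore arise from counting error alone, and these genes are not taken as marks of the 35 cells. Sox17 is on the primitive endoderm list, and the part of such cells was not tested. Across cells, the correlations between pairs of the 10 genes lay between -0.04 and 0.04 in 2955 KO ESCs and between -0.03 and 0.08 in 2968 KO 48h-EpiLCs. They were wider in the smaller WT classes, between -0.12 and 0.24 in 434 ESCs and between -0.08 and 0.16 in 367 48h-EpiLCs. The 0.24 was for Axin2 and Dkk1, and only 2 of these WT ESCs had a UMI of Dkk1. Without marker-rich barcodes the range in WT ESCs was -0.12 to 0.16. In these sparse counts no gene met the bar of likeness to Axin2, Sp5, Lef1 or Tcf7l1 (a correlation of at least 0.2 over KO cells).

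To place the 10 genes in their pathway, 101 further genes of 6 lists were read, from ligands to nuclear cofactors. In ESCs, 43 were measured, of which 10 were higher and 1 lower in KO cells, with 13.9% higher and 5.6% lower over all genes. The median log2 ratio was 0.27 against 0.13 over all genes. Of the cytoplasmic transducers, 3 of 16 were higher and 1 lower. Csnk1e, a casein kinase that phosphorylates Dishevelled, stood at 27.8 CPM in WT and 73.9 CPM in KO ESCs, a log2 ratio of 1.41 [1.19 to 1.64]. Gsk3a, a kinase of the destruction complex, stood at 34.9 and 65.4 CPM (0.91 [0.71 to 1.11]). Of the nuclear cofactors, 4 of 10 were higher and 0 lower. They included the β-catenin coactivator gene Bcl9l (0.93 [0.47 to 1.43]) and the corepressor gene Tle1 (0.82 [0.52 to 1.14]). The secreted Wnt deacylase gene Notum stood at 4.71 and 10.3 CPM (1.13 [0.59 to 1.72]), and the ligand gene Wnt6 at 4.55 and 8.61 CPM (0.92 [0.37 to 1.53]). Of the receptors, 1 of 9 was higher and 0 lower. Of the 5 genes measured from the list of other target genes, which does not hold Notum, none passed 1.5-fold.

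In 48h-EpiLCs more pathway genes were lower than higher in KO cells, with 2 of 46 measured genes higher and 7 lower, against 9.04% higher and 4.94% lower over all genes. The median log2 ratio was -0.05 against 0.08 over all genes. Fgf8, a growth factor gene that Wnt signals induce in the primitive streak, stood at 13.2 CPM in WT and 6.24 CPM in KO cells (-1.08 [-1.43 to -0.72]). Ascl2, a transcription factor gene and Wnt target in intestinal stem cells, stood at 9.0 and 4.45 CPM (-1.02 [-1.44 to -0.57]). The receptor gene Fzd2 stood at 37.9 and 21.2 CPM (-0.84 [-1.04 to -0.63]), and the ligand gene Wnt3, which the primitive streak needs, at 8.52 and 4.84 CPM (-0.82 [-1.24 to -0.36]). Gsk3b stood at 81.2 and 48.3 CPM (-0.75 [-0.89 to -0.61]). Tle5, from the list of nuclear cofactors, was higher in KO cells, at 46.1 against 23.0 CPM (1.00 [0.76 to 1.26]).

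**Figure D5:**
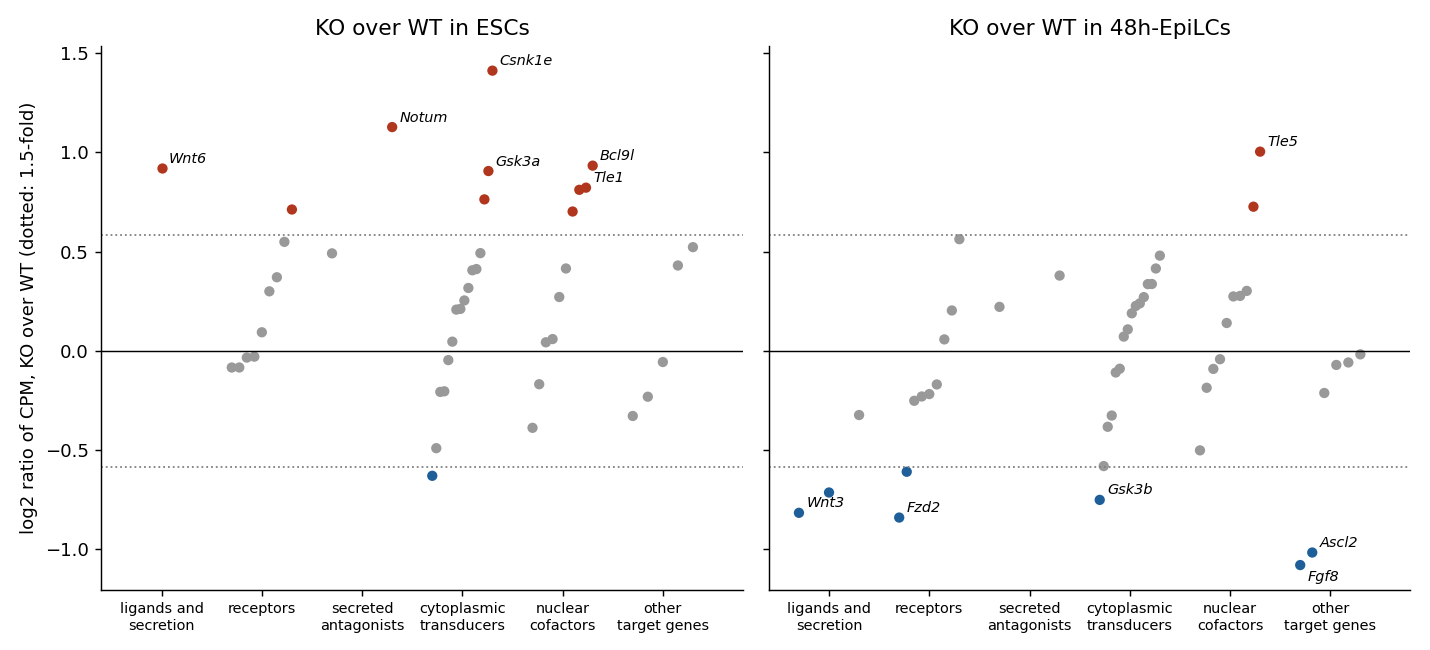
log2 ratio of KO to WT cells for the genes of 6 pathway lists with a mean of at least 5 CPM, in ESCs (43 genes) and in 48h-EpiLCs (46 genes). Each point is a gene, red or blue where it is past 1.5-fold (dotted lines), and up to 6 genes per panel are named. In ESCs 10 genes are red and 1 is blue, and in 48h-EpiLCs 2 are red and 7 are blue.

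Between the stages, ligand and receptor genes were among the pathway genes that differed most. In WT cells, 11 of 46 measured pathway genes were higher in 48h-EpiLCs and 6 lower, against 14.6% higher and 12.4% lower over all genes, so that the lower count was near the background. Fgf8 went from 1.30 to 13.2 CPM (3.34 [2.30 to 4.6]), the ligand gene Wnt8a from 1.46 to 14.6 CPM (3.32 [2.33 to 4.50]) and Fzd2 from 5.52 to 37.9 CPM (2.78 [2.26 to 3.34]). The Wnt-binding antagonist gene Sfrp2 went from 2.60 to 12.5 CPM (2.27 [1.48 to 3.15]), and Rspo1, a secreted enhancer of Wnt signals, from 2.92 to 10.1 CPM (1.79 [1.02 to 2.64]). The receptor gene Fzd5 went from 21.1 to 3.22 CPM (-2.72 [-3.47 to -2.03]). In KO cells, 4 of 47 were higher and 10 lower, against 9.51% higher and 11.1% lower over all genes, so that the higher count was near the background. Wnt8a (2.04 [1.72 to 2.36]), Sfrp2 (1.98 [1.74 to 2.23]) and Fzd2 (1.85 [1.65 to 2.04]) were higher, and Fzd5 (-2.35 [-2.57 to -2.15]), Notum (-2.73 [-3.07 to -2.40]) and Ascl2 (-1.56 [-1.78 to -1.35]) were lower.

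The naïve genes that Tcf7l1 is known to repress, Esrrb, Tfcp2l1, Klf2 and Nanog, were read beside the lower Tcf7l1 of KO cells. In ESCs the log2 ratios of KO to WT were 0.22 for Esrrb [0.04 to 0.39], 0.31 for Tfcp2l1 [0.11 to 0.52], 0.21 for Klf2 [0.15 to 0.27] and -0.59 for Nanog [-0.73 to -0.45]. Only Nanog of these passed 1.5-fold, and it was lower. In 48h-EpiLCs they were 1.68 for Esrrb [1.07 to 2.36], 1.91 for Tfcp2l1 [1.09 to 2.87], 1.31 for Klf2 [1.12 to 1.51] and -0.67 for Nanog [-0.91 to -0.43], with Tfcp2l1 under 5 CPM. The ratio of Tcf7l1 itself was the same at both stages, at -0.68. Of the naïve markers outside this set, Zfp42 stood at 37.5 CPM in WT and 97.1 CPM in KO 48h-EpiLCs. Tbx3 stood at 0.482 and 2.34 CPM there, and Klf4 was lower in KO cells, at 8.52 and 4.94 CPM. The part of Tcf7l1 in any of these differences was not tested.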

How the data were processed

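The deposited values were whole-number counts of UMIs per gene and barcode. By the submitters' notes, the authors used Cell Ranger 3.0.2 on mm10 with the tdTomato coding sequence added, from 10x Genomics 3′ libraries. Strand use in counting is not given in the sources used here, and annotated genes overlap 7 of the 10 genes. Cells were classed by the marks given above. Doublets carrying both marks fell in neither class, and no doublet caller was run. UMIs were summed per class and given as CPM with exact Poisson intervals, ratios with exact binomial intervals given the total of the 2 counts, and shares with Clopper-Pearson intervals. The interval of a difference between stage changes came from the Poisson variance of 4 counts. No test was run, since cells are not replicates. TMM factors came from edgeR 4.0.16, and other steps from Python 3.11.15, scipy 1.17.1 and numpy 2.4.6. The ratio and intervals were tested on simulated data.

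The 10 genes, the pathway and marker lists and the alternatives were chosen with earlier results of these data known. The cut of 5 UMIs for marker-rich barcodes was set after the data were seen. Named were the 10 genes, Cnot8, and, per comparison, at most 6 pathway genes of at least 5 CPM past 1.5-fold, by size of the log2 ratio. Positions are of GENCODE M21 on GRCm38. The libraries shared 41 barcodes (0.311% and 0.330%).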

Additional observations from a re-analysis of the deposited data

Results flagged for a closer look

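The log2 ratio of Axin2 between 48h-EpiLCs and ESCs was 0.79 in WT cells and -1.03 in KO cells. It stands out because the 2 lines lay on opposite sides of 0. The difference itself was not tested, since there was 1 library per stage.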

How the results depend on the processing

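Of 40 ratios (10 genes in 4 comparisons), 21 were past 1.5-fold, whether measured or not, and all 21 kept their direction under each of the 10 alternatives. Their size was not always kept. The log2 ratio of Dkk1 between the stages in WT cells, on 5 and 1 UMIs, went from -2.34 to as little as -0.05. Between the lines in 48h-EpiLCs, Sp5 went from -0.81 to -0.37 and Porcn from -0.77 to -0.44, both short of 1.5-fold. With the looser class rule, the count of genes higher in KO ESCs was 1 instead of 2, of genes lower in KO ESCs 2 instead of 3, of genes lower in KO 48h-EpiLCs 0 instead of 1, of genes higher in WT 48h-EpiLCs than in WT ESCs 1 instead of 2, and of genes higher in KO 48h-EpiLCs than in KO ESCs 2 instead of 1. This last count was also 2 with TMM scaling, which shifted the log2 ratios by -0.10 to 0.04. After thinning to 5000 UMIs, 2 genes in place of 1 were lower in KO 48h-EpiLCs, the Axin2 stage change of KO minus WT was -2.66 in place of -1.82, and 0 genes in place of 1 had a higher share of cells in KO 48h-EpiLCs with intervals apart. The causes were not tested. Over the alternatives, the log2 ratio of Axin2 in KO to WT ESCs ranged from 1.61 (looser class rule) to 2.67 (thinned). In the thinned cells only 8 of 434 WT ESCs had a UMI of Axin2. The share of all genes past 1.5-fold in either direction was 19.4% in ESCs between the lines, 28.3% with a floor of 1 CPM and 12.8% with one of 20 CPM. No paired analysis was possible because each stage had 1 library and no replicate. Depth limits Sp5, Nkd1 and Dkk1, for which 3 UMIs came to 0.487 CPM in WT ESCs and 0.482 CPM in WT 48h-EpiLCs.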
